A study of Drosophila melanogaster with 2 samples.

Results

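Of the 11045 sites bound by GFP-tagged gem in whole Drosophila melanogaster embryos, 2215 (20.1%) lay at one-directional protein-coding promoters. The direction is by annotated start sites of protein-coding genes, and these peak lists do not measure transcription. A peak was taken when its summit, the position of highest signal, fell within 500 bp of an annotated transcription start site (TSS) of a protein-coding gene. Summits at divergent promoters were left out, that is, where a minus-strand TSS and a plus-strand TSS of different protein-coding genes faced away from each other at most 1000 bp apart and both within 500 bp of the summit. The remaining peaks were 847 at divergent promoters, 299 at promoters of non-coding genes only and 7684 distal peaks, more than 500 bp from any TSS. The rule used positions only and no signal values. Of the 2215 members, 2146 had the TSS of 1 protein-coding gene in reach and 69 had TSSs of 2 or 3 such genes, and 150 also had a non-coding TSS within 500 bp. With pairs that include a non-coding gene also counted as divergent, 2111 members were left.

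The study applied chromatin immunoprecipitation and sequencing to a stable transgenic line in which gem carried GFP at its C-terminus. Embryos were of mixed sex and 0 to 24 h old, the precipitation used an antibody to GFP, and chromatin was sonicated to a stated size range of 200 to 800 bp. The single group had 2 biological replicates, numbered 1 and 4 in the labels. Peaks came from the authors' list filtered by irreproducible discovery rate (IDR), which keeps peaks whose ranks repeat between replicates, and each replicate's own list was used beside it. The promoter that drove the tagged gene was not given in the sources used here, and no embryos without the tag were analysed here. Every cell type of the embryo was pooled, and a peak list carries no expression values against which the labelled tissue could be checked. With 1 group of 2 replicates no test over samples was possible, so values are given for both replicates, and intervals are exact 95% binomial intervals (Clopper-Pearson) that cover counting error only. Peaks of 1 list are not replicates of a condition. Read depth is unknown from these lists.

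A promoter is the stretch of DNA at which RNA polymerase is loaded, and a one-directional promoter makes messenger RNA to one side only. In the compact fly genome many genes instead stand head to head and share the stretch between their start sites. Housekeeping genes often have promoters with the DRE and Motif 1 elements, while regulated genes more often use a TATA box, an initiator or GAGA elements. Gem (gemini) belongs to the CP2 branch of the Grainyhead family of transcription factors, whose members bind paired half-sites related to ACCGG and AACNGGTT.

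The sequences under the strongest members show what the summits had in common, a composition poor in G and C with long unbroken stretches of A and T. These 8 are the members of highest signal that were matched in both replicates, had no annotated exon in the window and could be shown here. Each is 81 bases of the RefSeq release 6 sequence (dm6) centred on the summit and written 5′ to 3′ in the direction of the gene, and capitals mark runs of at least 8 bases of A or T.
CG14100: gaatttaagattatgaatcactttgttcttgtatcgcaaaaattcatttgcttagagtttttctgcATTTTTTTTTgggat
ph-p: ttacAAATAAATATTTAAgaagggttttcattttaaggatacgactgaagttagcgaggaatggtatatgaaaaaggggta
CG18549: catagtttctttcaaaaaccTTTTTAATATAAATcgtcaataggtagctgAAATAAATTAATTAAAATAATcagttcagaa
msi: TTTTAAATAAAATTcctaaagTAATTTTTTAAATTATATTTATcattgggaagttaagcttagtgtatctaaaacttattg
RluA-1: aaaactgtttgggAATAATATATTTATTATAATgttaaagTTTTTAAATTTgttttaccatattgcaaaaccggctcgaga
CG31145: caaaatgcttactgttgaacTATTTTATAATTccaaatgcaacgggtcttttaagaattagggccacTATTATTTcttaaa
gish: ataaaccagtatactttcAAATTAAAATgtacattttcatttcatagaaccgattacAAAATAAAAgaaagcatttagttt
E23: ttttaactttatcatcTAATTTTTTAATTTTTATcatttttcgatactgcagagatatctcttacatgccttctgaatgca
The windows lie at chr3L:19590574-19590654 (minus strand) for CG14100, chrX:2137291-2137371 (minus) for ph-p, chr3R:12449127-12449207 (plus) for CG18549 and chr3R:25515850-25515930 (plus) for msi. Those of RluA-1, CG31145, gish and E23 lie at chr2L:10474500-10474580 (minus), chr3R:23669815-23669895 (minus), chr3R:16280681-16280761 (plus) and chr2L:3355053-3355133 (minus). The longest A/T run was 22 bases, in msi, and 21 bases in CG18549, and GC content over the 81 bases was between 18.5% in msi and 30.9% in ph-p.

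A second set shows members that hold a motif within their summit window. Each is the member of highest signal with that motif among those that had no exon in the window and could be shown here. Capitals here mark the motif: the DRE (TATCGATA) at Lamp1, a lysosomal membrane protein gene, Motif 1 (GGTCACACT) at Dpm3, for a subunit of dolichol-phosphate mannose synthase, the Grh/CP2 site (AACNGGTT) at CG10165 and GAGA (GAGAG, here as its reverse complement) at bbx.
Lamp1: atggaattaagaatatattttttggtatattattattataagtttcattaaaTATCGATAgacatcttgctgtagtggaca
Dpm3: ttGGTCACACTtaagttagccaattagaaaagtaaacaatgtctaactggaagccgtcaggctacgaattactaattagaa
CG10165: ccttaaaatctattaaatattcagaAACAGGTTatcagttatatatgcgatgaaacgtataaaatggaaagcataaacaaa
bbx: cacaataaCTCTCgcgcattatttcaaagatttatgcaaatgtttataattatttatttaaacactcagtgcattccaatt
Their windows are chr2L:21573235-21573315 (plus strand), chr3R:13403176-13403256 (minus), chr2L:19528468-19528548 (minus) and chrX:21367804-21367884 (plus), in the order of the lines. The IDR signal was 743 at Lamp1, 333 at Dpm3, 3141 at CG10165 and 4791 at bbx. These values are of the windows shown and not of the strongest member with each motif, since windows with an exon or that could not be shown here were passed over. In each of the 4 windows the motif lay off centre.

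Members were intermediate in strength between divergent promoter peaks and distal peaks. Signal is a value that the authors' caller assigned to each peak. Its scale is not stated, so it ranks peaks within a list and does not compare lists. The median signal in the IDR list was 519 for members (quartiles 298 and 1156, range 187 to 17818), 929 for divergent promoter peaks, 469 for peaks at non-coding promoters and 394 for distal peaks. The ratio of the medians, members over divergent promoter peaks, was 0.559, and it was 0.566 in the list of replicate 1 and 0.627 in that of replicate 4. Against all other peaks together the ratio was 1.25, with 1.27 in replicate 1 and 1.12 in replicate 4. Both ratios thus lay on the same side of 1 in both replicates. In the IDR list 1263 members (57.0%) and 638 divergent promoter peaks (75.3%) were stronger than the median peak. Members made up 189 of the 500 strongest IDR peaks (37.8%, interval 33.5 to 42.2). The 3 weakest members were at CG42238, pirk and TfIIEalpha, all with a signal of 187, at the lower end of the list.

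The 20 strongest members that were matched in both replicates had signals from 7562 to 17818, and none ranked lower than 42 in replicate 1 or 58 in replicate 4. Of these summits, 18 lay upstream of the TSS, and their GC content over 101 bases had a median of 25.2% (range 16.8 to 35.6). The strongest, at CG14100 (17818), was 13253 in replicate 1 and 4604 in replicate 4, and ranked first in both. The set held Ugalt, for a UDP-galactose transporter (12596, 9216 in replicate 1 and 3411 in replicate 4, summit 40 bp upstream), and C1GalTA, for a core 1 galactosyltransferase (7879, 5589 in replicate 1 and 2302 in replicate 4, 155 bp upstream). It also held mRpL41, for a protein of the large mitochondrial ribosomal subunit (14808, 10715 in replicate 1 and 4121 in replicate 4, 143 bp upstream) and PNPase, for polynucleotide phosphorylase (10776, 78 bp downstream). Further genes were px, which patterns wing veins (12127, 208 bp upstream), gish, a casein kinase 1 gamma (8204, 168 bp upstream), the RNA-binding protein gene msi (9518, 228 bp upstream) and E23, an ecdysone-induced ABC transporter (7992.5, 264 bp upstream). Fkbp14, for a prolyl isomerase of the endoplasmic reticulum, had 11152 at 123 bp upstream, and aay, for a phosphoserine phosphatase, had 7562 at 201 bp upstream.

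Other members of this top set were CG18549, CG1888, Tina-1, RluA-1, CG31145, CG1635 and osp, with summits 129 to 238 bp upstream of the TSS. The Polycomb group gene ph-p held 2 of the 20, an intronic peak of 11614 at 476 bp upstream of a TSS (8743 in replicate 1 and 2964 in replicate 4) and a peak of 7939.8 in an untranslated exon at 434 bp downstream of another (5726 in replicate 1 and 2275 in replicate 4). The neighbouring ph-d is a near-identical copy, with a member of 810, so the assignment of reads between the genes is uncertain. At the edge of the rule, the farthest members were FucTC at 500 bp downstream (419), CG8641 at 500 bp upstream (255) and E(spl)m2-BFM at 499 bp upstream (2628). Just outside, at 501 bp upstream, were peaks nearest to Boot (1697), CG6891 (1389) and Syn (503).

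Replicates ordered the members alike, in a list filtered for ranks that repeat between them. Of the 2215, 1840 (83.1%, interval 81.4 to 84.6) had a summit within 100 bp among the 11045 strongest peaks of both replicates, against 86.7% of divergent promoter peaks and 77.8% of distal peaks. In the whole lists of 30000 peaks per replicate 2067 members (93.3%) were matched in both, against 93.3% of divergent promoter peaks, 97.0% of peaks at non-coding promoters and 94.6% of distal peaks, so the order of the classes depended on the depth of the lists. The signals of the matched members had a Spearman coefficient of 0.903 between replicates, against 0.963 over the 790 divergent promoter peaks matched. These coefficients and the matched shares run across peaks that were selected for repeatable rank in these same replicates. They are a description and no separate evidence of repeatability. Summits of a member moved by a median of 15 bp between replicates. In the whole lists 98.6% of the strongest 443 members and 86.7% of the weakest 443 were matched in both replicates.

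**Figure D1:**
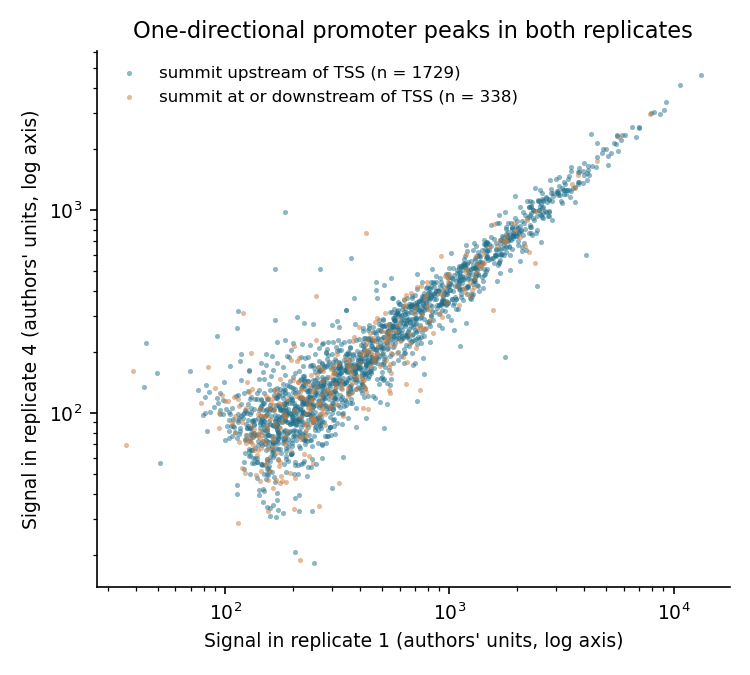
Signal of the one-directional promoter peaks in replicate 1 (x axis) and replicate 4 (y axis), in the authors' units on log axes, 1 point per peak matched in both (n = 2067), with colour for a summit upstream or at or downstream of the TSS. The points form a band that narrows at high signal (Spearman 0.903), and both colours run along it.

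Binding sat mostly upstream of the start site and was spread more widely than at divergent promoters. Of the members, 1855 (83.7%, interval 82.1 to 85.3) had their summit upstream of the nearest protein-coding TSS, with 84.0% in replicate 1 and 81.9% in replicate 4. With upstream positions written as negative, the median summit lay at −177 bp (quartiles −296 and −82 bp), with −185 bp in replicate 1 and −162 bp in replicate 4. At divergent promoters the median was −117 bp (quartiles −155 and −66 bp), with −116 bp in replicate 1 and −108 bp in replicate 4, and 84.9% were upstream. The stretch from 100 to 200 bp upstream held 26.9% of member summits and 50.1% of divergent ones (replicate 1 26.6% and 49.8%, replicate 4 25% and 46.0%). For the median position and for the share at 100 to 200 bp upstream, the 2 classes differed by more than the replicates did. This did not hold for the share upstream of the TSS, which at divergent promoters was 84.6% in replicate 1 and 83.7% in replicate 4. A divergent summit farther from 1 TSS approaches the other TSS of the pair, so part of this narrower spread follows from the definition of the classes.

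**Figure D2:**
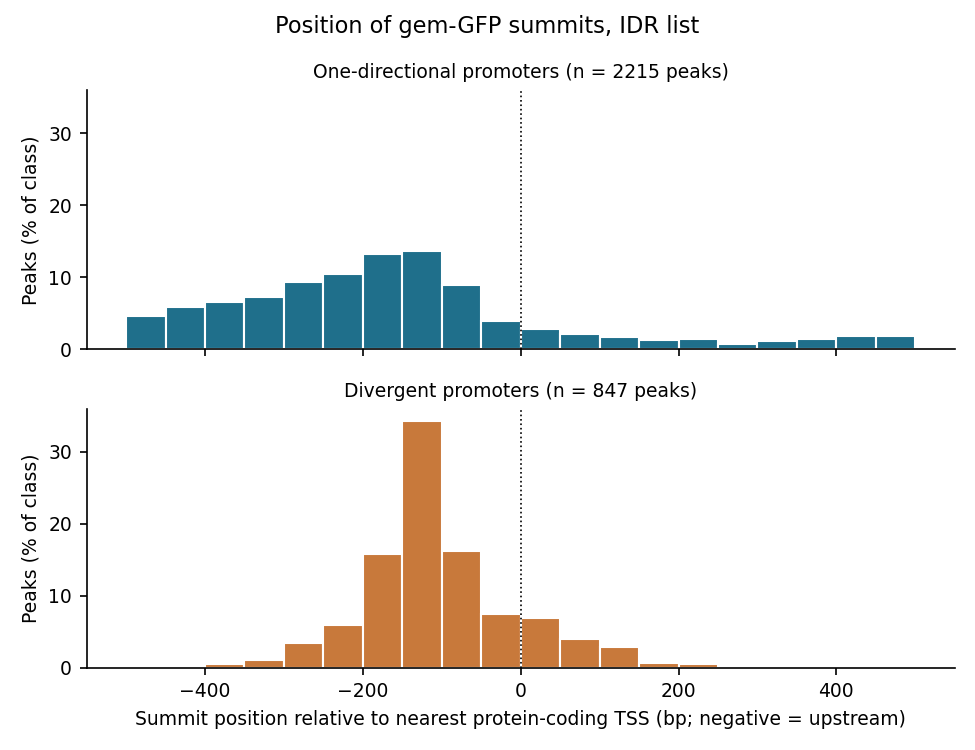
Position of summits relative to the nearest protein-coding TSS in bins of 50 bp (x axis, negative is upstream), as percent of the class (y axis), for 2215 one-directional (top) and 847 divergent promoter peaks (bottom) of the IDR list. The one-directional summits spread over the whole upstream window with a median of −177 bp, and the divergent ones concentrate near their median of −117 bp.

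Signal also depended on position. Members with a summit 100 to 200 bp upstream had a median signal of 623 (n = 596, 447 in replicate 1 and 203 in replicate 4), and those 300 to 400 bp upstream 653 (n = 305). Within the last 100 bp before the TSS the median was 342 (n = 285, 226 in replicate 1 and 125 in replicate 4), in the first 100 bp after it 413 (n = 108), at 100 to 300 bp downstream 396 and at 300 to 500 bp downstream 419 (n = 137). Summits close to the TSS or downstream of it were thus weaker than those 100 to 400 bp upstream, and in replicate 1 the 2 downstream stretches had 282 and 296 and in replicate 4 127 and 145. At divergent promoters the median was 1035 at 100 to 200 bp upstream (n = 424) and 878 in the last 100 bp before the TSS (n = 201). GC content moved with it, with a median of 34.7% for members in the last 100 bp before the TSS and 27.7% for those 100 to 200 bp upstream. Its part in the signal was not tested.

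By annotation 48.7% of member summits were intergenic, 35.5% intronic and 13.1% in an untranslated exon. Another 2.30% were in a non-coding exon, and 8 summits (0.361%, interval 0.156 to 0.710) were in coding sequence. Divergent summits were intergenic in 71.8% and intronic in 11.0%. By setting, 827 members were at a promoter whose upstream neighbour was on the same strand (median signal 520). Another 541 had an upstream neighbour on the other strand, without a divergent pair whose TSSs both lay within 500 bp of the summit (432). The TSS of that neighbour could still be within 1000 bp of the member's TSS. The others were 680 at a downstream promoter of their own gene (606) and 167 at a promoter inside another gene (487). Downstream promoters had the highest median of the 4 settings in both replicates (426 in replicate 1, 195 in replicate 4), and an upstream neighbour on the other strand the lowest (309 in replicate 1, 144 in replicate 4).

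Genes with several promoters were bound more often per promoter than genes with 1. Start sites of a gene were joined into promoters when they lay at most 500 bp apart, and the 11933 such promoters without a divergent partner were counted, of which 1994 (16.7%) had a member. In genes with a single promoter 974 of 7582 (12.8%, interval 12.1 to 13.6) had one. The first promoter of genes with several was bound in 383 of 1417 (27.0%, interval 24.7 to 29.4) and later promoters in 637 of 2934 (21.7%, interval 20.2 to 23.2). Replicate 1 gave 12.5%, 25.8% and 21.1% and replicate 4 14.8%, 30.4% and 23.9% for these 3 kinds, in the same order. The second, the third and the fourth or later promoters did not differ beyond their intervals, with 21.8%, 21.2% and 22%. Single-promoter, first and later promoters held nearly the same number of annotated start sites, 1.12, 1.13 and 1.10 on average. Promoters inside another gene were bound in 10.4%.

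**Figure D3:**
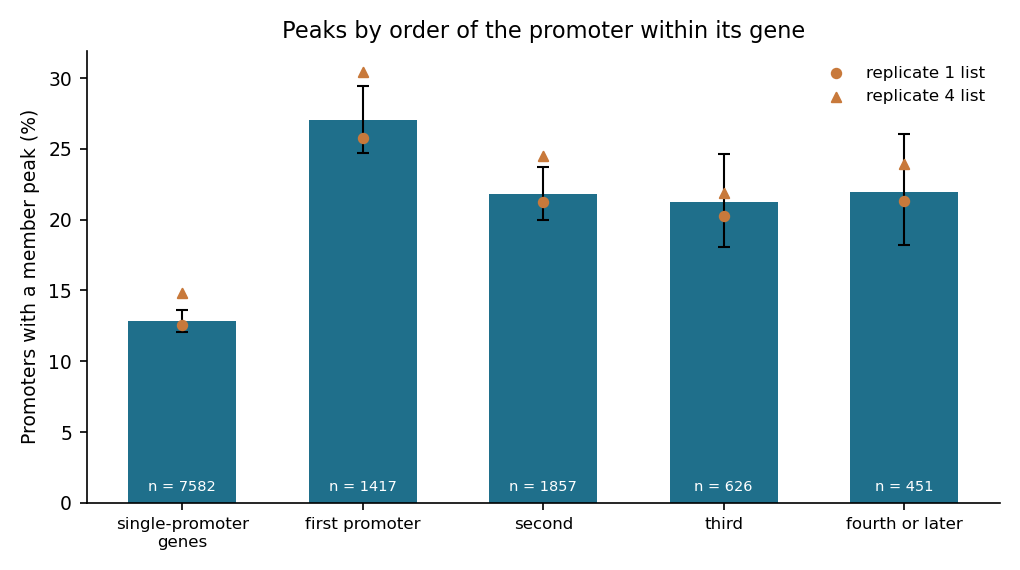
Percent of promoters without a divergent partner that had a one-directional peak (y axis), for genes with 1 promoter and for the first, the second, the third and later promoters of other genes (x axis). Bars are the IDR list with exact 95% binomial intervals, and circles and triangles are the lists of replicates 1 and 4. Single-promoter genes are lowest (12.8%) and first promoters highest (27.0%).

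Among the 832 multi-promoter genes with a member, 281 had it at the first promoter only, 388 at later ones only and 163 at both. Seen per peak, 1120 members were nearest to a gene whose start sites were more than 500 bp apart, and 432 of these (38.6%, interval 35.7 to 41.5) were at the 5′-most one. The 1870 genes nearest to a member had 1 member in 1598 cases, 2 in 222 and 3 or more in 50. Ptpmeg2, a protein tyrosine phosphatase gene on X with 6 promoters, had 6 members with signals from 253 to 3668. SNF4Agamma, for the gamma subunit of AMP-activated kinase, had 6 members over 9 promoters (214 to 2178). The reticulon gene Rtnl1 had 5 over 7 promoters (191 to 6945), the cAMP phosphodiesterase gene dnc 5 over 8 (216 to 3691) and the supervillin gene Svil 5 over 16 (192 to 1506). Some of these peaks shared a promoter, as did those of dnc with signals of 216 and 653, so the range is over peaks and not over promoters.

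The share of promoters without a divergent partner that were bound differed between chromosome arms. It was 19.5% on X (interval 17.8 to 21.3), 16.9% on 2L (15.3 to 18.5), 15.2% on 2R (13.8 to 16.7), 17.1% on 3L (15.6 to 18.7) and 15.1% on 3R (13.8 to 16.5). The interval of X lay above those of 2R and 3R. On the small chromosome 4 it was 28 of 95 (29.5%, interval 20.6 to 39.7), above the larger arms except for an overlap with the interval of X.

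The A/T-rich composition of the printed sequences held across the class and was shared by the other peaks. Over 101 bases around the summit, GC content averaged 30.7% in members (30.2% in replicate 1 and 32.5% in replicate 4), 28.1% in divergent promoter peaks and 29.5% in all other peaks. It was 42.9% in windows 500 bp to either side of the members and 36.6% in windows 120 bp upstream of a TSS of all 13945 protein-coding genes. In 5 groups of 443 members, from the strongest to the weakest, the median was 26.7%, 27.7%, 29.7%, 30.7% and 32.7%. The Spearman coefficient between GC content and signal was −0.26 across members, −0.34 across divergent promoter peaks and −0.11 across distal peaks. The points share their libraries, so this is a description. Read in the direction of the gene, mean GC in bins of 50 bp was 40.4% at 500 bp before the summit, 30.1% at the summit and 46.1% at 300 bp after it, on the side of the gene. Both replicates' lists followed the same course, with 29.6% in replicate 1 and 31.9% in replicate 4 at the summit.

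GAGA was less frequent at summits than in windows 500 bp away, while TATAAA and the DRE were more frequent at summits than there. GAGA, Motif 1 and the DRE were each denser beside the summit than at it. GAGA (GAGAG, bound by GAGA factor) was found on either strand within 50 bp of 7.81% of member summits, against 14.4% of flanking windows, 5.43% of divergent promoter peaks, 6.67% of all other peaks and 13.2% of all promoter windows. The replicates gave 7.47% in replicate 1 and 8.88% in replicate 4. In bins of 50 bp there were 5.15 GAGA matches per 100 members at the summit, 18.7 at 175 bp before it and 23.0 at 175 bp after it. Around divergent summits the bins 175 bp before and after held 8.03 and 6.97 per 100. In replicate 1 these bins held 18.8 and 23.7 per 100 members and 7.88 and 6.35 per 100 divergent promoter peaks, and in replicate 4 16.7 and 19.9 per 100 members and 6.93 and 4.94 per 100 divergent ones. At these bins the GAGA matches beside the summit were thus denser at the members in both replicates. Its scarcity at the summit went with the low GC content there, whose part in it was not tested.

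The DRE (TATCGATA, bound by DREF and containing CGATA of the BEAF-32 site) lay within 50 bp of 35 member summits (1.58%, interval 1.10 to 2.19), against 0.361% of flanks, 1.53% of divergent promoter peaks, 0.396% of all other peaks and 1.51% of all promoter windows. The share was 1.35% in replicate 1 and 2.54% in replicate 4. It was higher in weaker members, 2.48% of the weakest 443 and 0.451% of the strongest 443. Motif 1 (GGTCACACT) was at 7 summits (0.316%; 0.234% in replicate 1 and 0.821% in replicate 4), against 0.0903% of flanks. All promoter windows had 0.746%, and the replicates fell on either side of that share. The comparison of Motif 1 with flanks rests on 7 members and 4 flanking windows. In bins of 50 bp there were 0.0451 Motif 1 matches per 100 members at the summit and 0.0451 at 500 bp before it. At 125 bp after the summit there were 1.40 Motif 1 matches per 100 members. DREs numbered 0.948 per 100 members at the summit and 1.49 at 100 bp after it. Divergent promoter peaks had 5.43 DREs per 100 at 100 bp after the summit and 4.6 Motif 1 matches per 100 at 125 bp. The E-box CAGCTG (Ohler motif 5) was within 50 bp of 2.84% of member summits and 4.41% of all promoter windows. The NRF-1 site (GCGCATGCG) was at 0 of 2215 summits, where 28 of all promoter windows (0.201%) held it, and no match says only that these letters are not in this window.

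**Figure D4:**
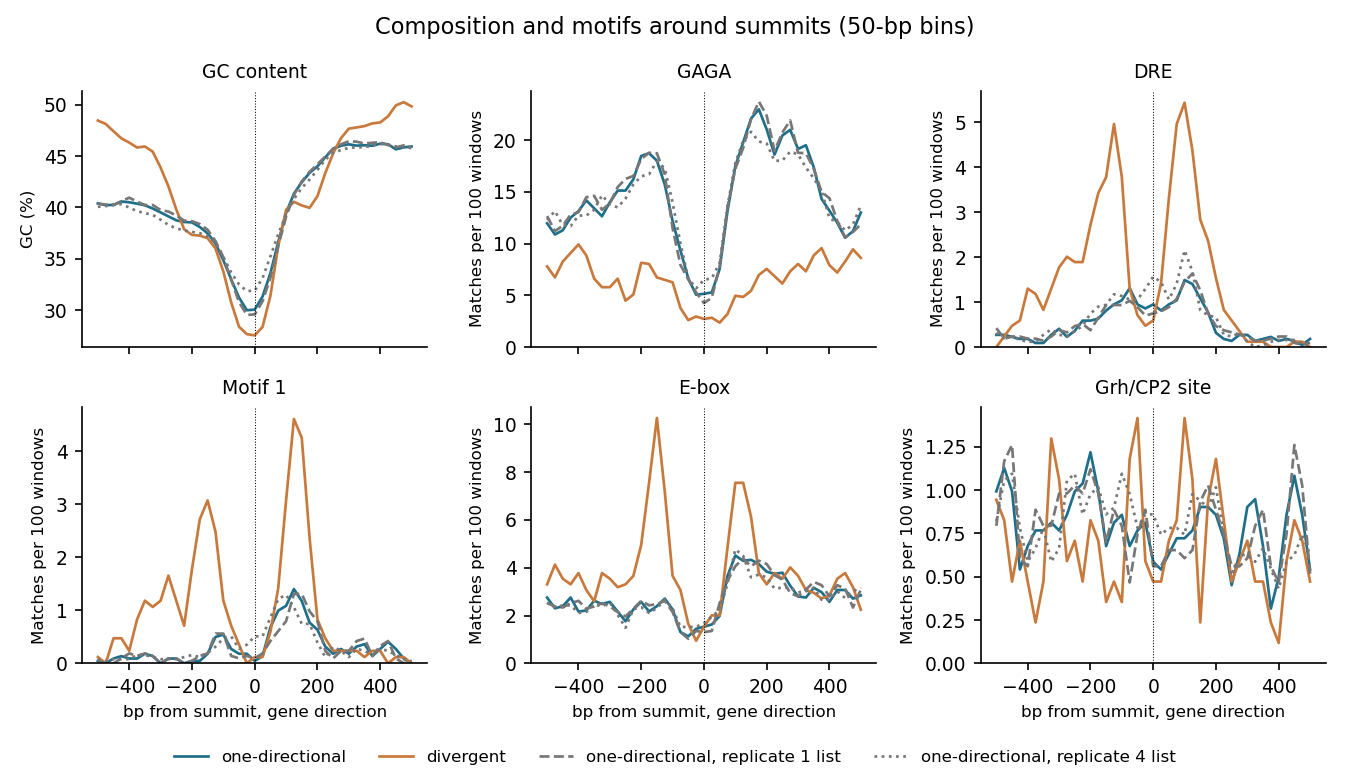
GC content (percent) and matches per 100 windows of 5 motifs (y axes) in bins of 50 bp around the summit (x axis, in the direction of the nearest gene), for one-directional and divergent promoter peaks of the IDR list and for one-directional peaks of each replicate's own list. GC and GAGA dip at the summit in every line, GAGA is denser beside one-directional summits, and DRE, Motif 1 and the E-box are denser beside divergent ones.

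The site AACNGGTT of gem's own family was not concentrated under member summits. AACNGGTT was within 50 bp of 28 members (1.26%, interval 0.842 to 1.82), with 1.17% in replicate 1 and 1.45% in replicate 4, against 1.51% of flanks, 0.945% of divergent promoter peaks, 1.26% of all other peaks and 1.54% of all promoter windows. The core ACCGG was in 3.02% of members (interval 2.35 to 3.83), 2.36% of divergent promoter peaks and 2.14% of all other peaks. It was in 6.98% of flanks and 4.74% of all promoter windows, which were higher in GC than the members. The part of GC content in these shares was not tested. Across the bins of 50 bp AACNGGTT ran without a rise at the summit, with 0.587 per 100 at the summit and 0.993 at 175 bp before it. From the strongest to the weakest of the 5 groups of 443 this site was present in 0.451%, 1.35%, 1.58%, 1.81% and 1.13%. By contrast, letters made of A and T were frequent, TATAAA in 27.4% of members, 33.4% of divergent promoter peaks, 28.7% of all other peaks, 11.7% of flanks and 19.7% of all promoter windows. TAATTA, the homeodomain core, was in 11.7% of members, 16.6% of divergent promoter peaks, 12% of all other peaks, 5.94% of flanks and 10% of all promoter windows. Both motifs are made of A and T, and the windows were low in GC. The Zelda site CAGGTA was in 1.85% of members and 2.24% of all promoter windows, and the AP-1 site TGANTCA in 2.17% and 2.13% of these. The Pho site GCCATNTT was in 1.58% of members and 1.69% of all promoter windows. For the ETS site CCGGAAG the shares were 0.316% and 0.387%, but replicate 4 gave 0.548% of its members and replicate 1 0.327%, so the direction turned with the replicate. For the GATA factor site AGATAA they were 9.07% and 8.0%. Runs of 8 A (or T) were in 9.44% and 6.66%, and CACACACA in 0.948% and 1.46%.

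Elements at the start site itself set the bound one-directional promoters between divergent ones and unbound ones for TATA. Of 1517 genes with a member at their 5′-most coding TSS, 4.68% (interval 3.67 to 5.87) had TATAAA 40 to 15 bp upstream of it, against 1.93% of 1502 genes with a divergent promoter peak only and 9.27% of 10513 genes with neither. An initiator (TCAGT or TCATT) within 10 bp was present in 20.7% of the genes with a member (interval 18.7 to 22.8), 8.59% of those with a divergent promoter peak only and 16.7% of those with neither. A DRE within 100 bp upstream was present in 5.74%, 10.7% and 5.60% of these groups, and Motif 1 within 100 bp in 5.41%, 9.39% and 4.65%. For DRE and Motif 1 the genes with a member were thus within the interval of the genes with neither or close to it.

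Counted by gene, 1930 of 13945 protein-coding genes (13.8%) had a member within 500 bp of a TSS. The list of replicate 1 gave 1881 such genes and that of replicate 4 gave 2173. Of the 8893 genes with no divergent pair at any TSS 1536 (17.3%) had one, and 142 genes had both a member and a divergent promoter peak. Of the 5052 genes with a divergent pair 1644 (32.5%) had a divergent promoter peak. Counted as loci rather than genes, 803 of 2474 divergent loci (32.5%) were bound, against 16.7% of one-directional promoters, although a divergent locus is the wider target because it has 2 start sites. The authors' pooled list, which is longer, gave 4756 one-directional promoter peaks and 3226 genes.

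Cytosolic ribosomal protein genes had members more often than all genes. Mitochondrial ribosomal protein genes, most of which have a divergent pair, had a lower share that depended on the TSS window and set. Cytosolic ribosomal protein genes had a member in 36 of 86 (41.9%, interval 31.3 to 53.0; 28 in replicate 1, 43 in replicate 4), against 13.8% of all genes, and 28 had a divergent promoter peak. Among the 33 with no divergent pair, 24 (72.7%) had a member, against 17.3% of all such genes. Their peaks were weak, with a median signal of 400 over the genes with one, against 519 over all members, and 15 of the 36 were left among peaks stronger than the median of the list. RpL23A had 1192 (752 in replicate 1 and 442 in replicate 4) 75 bp upstream, in a window of 56.4% GC, RpL27A 1057 (738 in replicate 1 and 314 in replicate 4) 113 bp upstream, and RpL11 1011 with no match within 100 bp in replicate 1 and 395 in replicate 4. Mitochondrial ribosomal protein genes had a member in 4 of 73 (5.48%, interval 1.51 to 13.4) and a divergent promoter peak in 26. With a TSS window of 250 bp the 2 counts of genes with a member were 43 of 86 and 7 of 73 (9.59%, interval 3.94 to 18.8). All genes had 11.0%, so the lower share of the mitochondrial list did not hold beyond its interval there. A narrower window adds no promoter peaks. Genes gained there had peaks classed as divergent at 500 bp, which count as one-directional when 1 TSS of the pair falls outside 250 bp. With 1 TSS per gene the mitochondrial count was 4 of 73 (interval 1.51 to 13.4), which included the 11.6% of all genes. Of the 15 mitochondrial genes with no divergent pair 2 had a member (13.3%), against 17.3% of all such genes and the 72.7% of cytosolic ones. Of genes with a pair, 28 of 53 cytosolic (52.8%) and 26 of 58 mitochondrial ones (44.8%) had a divergent promoter peak. The 4 included mRpL41, the second strongest peak of the list, mRpL4 (736) and mRpL19 (723).

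Other housekeeping lists had members at shares whose intervals all included the 13.8% of all genes, and all but translation factors had more divergent promoter peaks than members. Proteasome subunit genes had a member in 2 of 40 and a divergent promoter peak in 8, the 2 being Rpn11, the deubiquitinase of the lid (1169, 806 in replicate 1 and 366 in replicate 4), and Rpn12 (408), while Prosalpha1 and Prosalpha1R had no peak. RNA polymerase II, TFIID and Mediator genes had a member in 4 of 59 and a divergent promoter peak in 13, with MED4 (1232), MED21 (365) and the elongation factor gene TfIIS (224). Respiratory chain and ATP synthase genes had 9 and 15 of 84, with COX7AL2 at 908, ATPsynC at 508 and ND-B22 at 375. The vacuolar proton ATPase had 4 and 7 of 33, with VhaPPA1-1 at 329, Vha68-2 at 266 and VhaAC39-2 at 228. Translation factors had 9 and 5 of 51, led by eIF6 (5957, 4331 in replicate 1 and 1636 in replicate 4), eIF3c (1599.9) and eEF1gamma (1193). The shares with a member ran from 5.00% for the proteasome to 17.6% for translation factors.

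Several lists of developmental and tissue genes had members more often than all genes. In the IDR list the intervals for muscle, heart and trachea, for Enhancer of split and Notch, for junctions and polarity and for cuticle barrier and wound response lay above 13.8%, and those of the other developmental lists included it. For the barrier genes this held in neither replicate's own list. The number of promoters per gene moved with the share of genes bound, and these calls depended on it and on the window. With 1 TSS per gene, where all genes had 11.6%, members were left at 6 of 25 genes of muscle, heart and trachea (interval 9.36 to 45.1), 5 of 34 junction and polarity genes (4.95 to 31.1) and 5 of 20 barrier genes (8.66 to 49.1), all including the share of all genes. Enhancer of split and Notch genes kept 7 of 20 (15.4 to 59.2). With a TSS window of 250 bp, where all genes had 11.0%, muscle, heart and trachea had 2 of 25 (0.984 to 26.0), Notch 4 of 20 (5.73 to 43.7) and barrier genes 5 of 20, again including it, while junctions and polarity had 10 of 34 (15.1 to 47.5). Muscle, heart and trachea genes had a member in 10 of 25 (40%, interval 21.1 to 61.3; 10 in each replicate) and no divergent promoter peak, with a median signal of 1466. They included trh, the master regulator of the trachea (3019.6, 368 bp upstream), tin, needed for the heart (2746, 1984 in replicate 1 and 771 in replicate 4, 227 bp upstream), and stumps, an adaptor of FGF receptors (2744, 316 bp upstream). Enhancer of split and Notch genes had a member in 8 of 20 (8 in each replicate) with a median of 2288, among them the Notch-induced repressor genes E(spl)m3-HLH (4217, 3016 in replicate 1 and 1214 in replicate 4) and E(spl)m7-HLH (2826), and numb, an inhibitor of Notch (3498). Growth factor and morphogen genes had 9 of 39 (4 with 1 TSS per gene), with the EGF receptor ligand spi (4226), its antagonist aos (3369) and the kinase sgg (3887). Junction and polarity genes had 12 of 34 (13 in replicate 1, 16 in replicate 4), with bark of tricellular junctions (2700.0), the myosin light chain sqh (1940.4) and Atpalpha of the sodium pump (1817).

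Genes of the cuticle barrier and wound response, among which Grainyhead targets are known, had a member in 7 of 20 (35.0%, interval 15.4 to 59.2; 6 in each replicate). The interval for 6 of 20, 11.9 to 54.3, included the share of all genes in each replicate's list, 13.5% in replicate 1 and 15.6% in replicate 4. Fhos, a formin, had 5655 (4193 in replicate 1 and 1489.6 in replicate 4), Duox, a dual oxidase, 2426, and tyn 1192.5. The lists in the rest of this paragraph had shares whose intervals all included the 13.8% of all genes. Heat shock genes had 7 of 25 (28%, interval 12.1 to 49.4). Strongest were 3 small heat shock genes of 1 cluster on 3L, Hsp27 (5638, 4128 in replicate 1 and 1523 in replicate 4), Hsp26 (1869) and Hsp22 (1111). Hox and segmentation genes had 4 of 28, near the share of all genes, with Dfd (1003), bcd (914) and Antp (336). Neuroblast and neuron genes had 4 of 27 (14.8%), with elav at 5725, fne at 875 and nerfin-1 at 358. Cell cycle and replication genes had 6 of 33 (18.2%). They included both partners of the E2F dimer, Dp (2210.4) and E2f1 (934), and fzr, for an activator of the anaphase-promoting complex (912). Polycomb and Trithorax genes had 5 of 30 (16.7%, with 5 in replicate 1 and 8 in replicate 4). They included ph-p and ph-d above and Trl, the gene of GAGA factor, at 1567 and 132 bp downstream. Insulator genes had 3 of 19 (15.8%), BEAF-32 (1158), Clamp (318) and pita (223, a peak nearer to a TSS of Dcp-1).

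Gene families used in late or restricted tissues were bound less often, with intervals below 13.8% for receptors and structural cuticle proteins. Receptors of smell and taste with odorant binding proteins had a member in 5 of 230 (2.17%, interval 0.710 to 5.00), among them Obp83g (631), Obp99b (487) and Obp83cd (281), and structural cuticle proteins in 4 of 122 (3.28%), with Cpr67Fa1 (504), Cpr73D (483) and Cpr65Ea (476). Cytochrome P450 genes had 7 of 84 (8.33%, interval 3.42 to 16.4), led by Cyp6u1, whose peak is nearer to a TSS of Ufsp1, with 4302 (3129.6 in replicate 1 and 1177 in replicate 4), then Cyp317a1 (785) and Cyp6v1 (648). On a testis list 0 of 22 genes had a member, for which the exact interval reaches 15.4% and 3 counts in 22 would be 13.6%, so that a share like that of all genes was within reach, and Mst84Da, a sperm protein gene, and the cyclin gene CycB3 were among those without a peak. Both genes of the family carried a member of their own, gem with 220 (152 in replicate 1 and 56.2 in replicate 4) at 69 bp downstream of a TSS and grh with 1025 (764 in replicate 1 and 260.4 in replicate 4) at 198 bp downstream. The gem peak was near the lower end of the list, and the grh summit lay in a non-coding exon. With pairs that include a non-coding gene also counted as divergent, 1 of the 2 genes had a member. Where the tagged copy was inserted was not given in the sources used here, so reads from the gene's own locus and from the tagged copy cannot be told apart at gem.

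**Figure D5:**
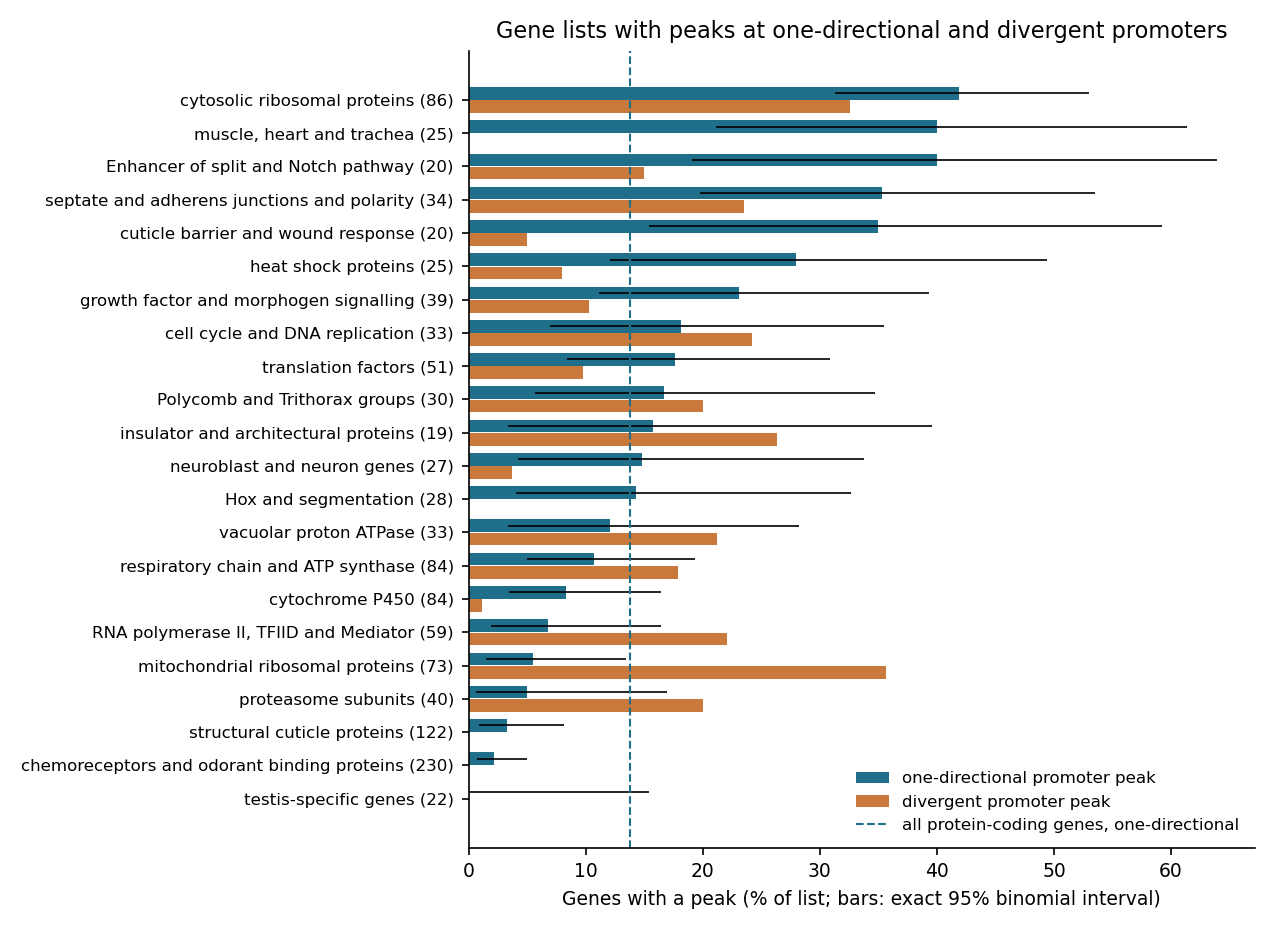
Percent of the genes of each list (rows, with the number of genes) that had a one-directional promoter peak (upper bar, with its exact 95% binomial interval) and a divergent promoter peak (lower bar), IDR list. The dashed line is the 13.8% of all protein-coding genes with a one-directional promoter peak. Cytosolic ribosomal proteins are at 41.9% and mitochondrial ribosomal proteins at 5.48%.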

How the data were processed

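Peak lists were the authors' own, on assembly dm6. Per the deposited listings, each replicate's peaks were called on its alignment with a control alignment, a pooled list was called on both, and the IDR list was made from these. The aligner, the peak caller and the IDR threshold are not given in the sources used here. The authors' files give a signal value, a −log10 q-value and a summit offset per peak. The deposited −log10 q-value was at its highest in 90.9% of members, so signal was used for ranks.

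Summits were placed on release 6 gene models (Ensembl release 115, BDGP 6.54) and RefSeq sequence with Python 3.11.15, numpy 2.4.6, scipy 1.17.1 and matplotlib 3.10.9. Motifs were searched on both strands. The Grh/CP2 site can overlap its core. A gene had a member when a member summit lay within 500 bp of its TSS. Each replicate's values come from its 11045 strongest peaks. Replicate signals beside a member are those of the nearest summit within 100 bp. No test was used, since 1 group had 2 replicates, whose spread is biological only as far as their label says.

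Members, the 23 gene lists and 16 motifs were chosen with earlier results of these data known. Genes were named by rule: those at the 20 strongest members matched in both replicates, up to 3 per list by signal, the members at the edge of the window, the 5 genes with most members and the 3 weakest members. Of the symbols in the lists, those not matched to an annotated gene were left out. Alternatives changed the TSS window, the divergent distance, the TSS set, the matching distance, the motif window, the peak set and the replicate. Functions were tested on simulated data.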

Additional observations from a re-analysis of the deposited data

How the results depend on the processing

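With only the peaks stronger than the median of the list, the members numbered 1263 and their genes 1192, 86.4% were upstream, the median position was −195 bp, the signal ratio to divergent promoter peaks 0.813, the share matched in both replicates 95.6%, the share at the 5′-most TSS 34.9% and the Grh/CP2 share 1.03%. A TSS window of 250 bp gave a position of −133 bp, a ratio of 0.463, 48.5% at the 5′-most TSS and motif shares of 2.45% (DRE), 6.46% (GAGA) and 1.00% (Grh/CP2). A window of 1000 bp gave 73.9% upstream, a ratio of 0.605 and 37.3% at the 5′-most TSS. Divergent pairs at most 500 bp apart gave a ratio of 0.515. With 1 TSS per gene the position was −158 bp, and the share at the 5′-most TSS could not vary. Matching within 50 or 200 bp, or in the whole lists, gave 75%, 85.9% and 93.3%. Start sites over 1000 bp apart gave 41.4% at the 5′-most TSS. Motif windows of 25 bp gave 3.39% (GAGA) and 0.451% (Grh/CP2), and of 100 bp 3.34% (DRE), 19.7% (GAGA) and 2.48% (Grh/CP2). The causes of these shifts were not tested beyond what fewer peaks or other windows change by construction.

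Each replicate's own list gave from 81.9% to 84.0% upstream, a ratio to divergent promoter peaks of 0.566 to 0.627 and to all other peaks of 1.12 to 1.27, a DRE share of 1.35% to 2.54% and a GAGA share of 7.47% to 8.88%. The share matched in both replicates cannot be formed without one of them. Of 184 gene list counts under these alternatives 154 were within 1.5 times the value given, and of 130 shares of the other motifs 56 were marked as moved. The mark does not mean that a share left its interval. The AP-1 share with divergent pairs at most 500 bp apart was marked at 2.12%, inside the interval of 1.60 to 2.86. No paired analysis was possible because there is 1 group and no test. Read depth, the scale of the signal and the control alignment limit these lists, and small lists have wide intervals.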
